A study of Mus musculus with 16 samples.

Results

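Cadherins and protocadherins were taken as every gene whose symbol in the array's platform annotation begins with Cdh and a digit or with Pcdh, over probe sets assigned to a single gene. The rule found 56 genes on 101 probe sets, out of 18193 genes named by single-gene probe sets. They comprised 5 classical type I cadherins, 11 type II cadherins, 5 other cadherins, 4 delta-1 protocadherins, 5 delta-2 protocadherins, 3 other non-clustered protocadherins and 23 clustered protocadherins. The clustered members were 22 Pcdhb genes and 1 Pcdhg gene, Pcdhgc4, so their counts describe the Pcdhb cluster and not clustered protocadherins as a class. A gene was represented by its brightest probe set, and 27 of the 56 had more than 1. The test covered genes whose mean signal lay above the 30th percentile of all probe sets, which kept 43 of the 56 members and 13915 genes in all. The other 13 members were dim on every array, between 1.00 and 50.1 intensity units. They were Cdh1, Cdh3, Cdh5, Cdh16, Cdh17, Cdh18, Cdh19, Cdh26, Pcdh1, Pcdh12, Pcdhb2, Pcdhb13 and Pcdhb18, among them E-cadherin (Cdh1), the adhesion molecule of epithelia, and VE-cadherin (Cdh5), that of vascular endothelium.

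The study measured total RNA from cortical neurons cultured from C57BL/6 embryos at day 16.5 of gestation, on 16 Affymetrix mouse genome 430 2.0 arrays. On day 5 in vitro, cultures received lentivirus for 6 h with polybrene at 6 µg per ml, carrying an shRNA that targets Fos mRNA or, as the control, one that targets firefly luciferase. On day 7 the neurons, first silenced, were depolarised with KCl for 0, 1, 3 or 6 h. This gave 8 groups of 2 arrays: control shRNA at 0, 1, 3 and 6 h, and c-Fos shRNA at the same times. All cultures were thus infected and silenced, the comparison between arms rests on a single shRNA per target as far as the labels say, and arrays of a group are labelled as biological replicates with no word on separate dissections. The p-values therefore measure only how far these arrays spread.

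Classical cadherins are calcium-dependent adhesion molecules that bind their like across the cell junction and hold actin through beta-, alpha- and p120-catenin. At synapses they align the membranes of the contacting neurons, and type II members are distributed by cortical layer and area. Delta protocadherins adhere more weakly and signal through their cytoplasmic tails to actin regulators, and some remove N-cadherin from the synapse. Clustered protocadherins are chosen from arrays of alternative promoters, so that each neuron displays its own combination and recognises its own branches. The comparisons ask which members respond to depolarisation, which sit at another level when Fos is knocked down, and whether knockdown alters the response.

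Fos itself was lower with its shRNA at every time. Its mean intensity was 246.1 ± 20.5 (SD, n = 2) at 0 h and 11930 ± 44.5 at 6 h with control shRNA, against 134.9 ± 23.6 and 3241 ± 140 with c-Fos shRNA. The labelled neurons were present with other cells: all 8 pan-neuronal markers, all 8 inhibitory markers and all 7 measured excitatory markers lay above the filter. All 8 astrocyte markers, all 8 markers of progenitors and dividing cells, 6 of 7 of the oligodendrocyte lineage and 7 of 8 of fibroblasts and mural cells did too. The markers below the filter in the last 2 lists were Mog and Col1a1. Only 2 of 8 microglial markers (Csf1r and C1qb) and 3 of 8 endothelial markers (Kdr, Tek and Esam) passed. Aif1, Cx3cr1, Itgam, Tyrobp, C1qa and P2ry12 were below the filter, as were Pecam1, Cldn5, Vwf, Emcn and Tie1. Fewer cells of a type and less RNA per cell cannot be told apart in these bulk samples. The Actb ratio of 3′ to 5′ probe sets, a measure of RNA integrity, ran from 1.17 to 1.23 with control shRNA and from 1.18 to 1.21 with c-Fos shRNA, and the ranges overlapped.

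At 6 h of KCl limma called the same protocadherins, with Cdh7, higher in both arms. It called 3 type II cadherins lower with control shRNA at 3 and 6 h. Of these, 2 (Cdh10 and Cdh11) were also called lower with c-Fos shRNA at 3 h. At 6 h of KCl, 9 members were higher and 5 lower with control shRNA, and 9 were higher with c-Fos shRNA. The same 9 genes were higher in both arms: Pcdh8, Pcdh10, Pcdh17, Pcdh18, Pcdh20, Pcdh7, Cdh7, Pcdhb3 and Pcdhb22. The share of all genes higher in both arms is not given here, and both Cdh7 calls were lost with the mean of probe sets. By role, 4 of 5 tested delta-2 protocadherins were higher in each arm, against 1 of 3 tested delta-1, 1 of 8 tested type II and 2 of 20 tested clustered members. The plot of all tested members shows where these calls fall.

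Calls were made by limma at an adjusted p under 0.05, and a change is the difference of log2(intensity + 16) after quantile normalization. Of all tested genes, 44.1% were called at 6 h with control shRNA and 41% with c-Fos shRNA, so the members' 14 of 43 (32.6%) and 9 of 43 (20.9%) were below the share of all genes. Among all genes 16.7% were higher and 27.4% lower with control shRNA, beside 20.9% and 11.6% of members. With c-Fos shRNA 16.1% of all genes were higher and 24.9% lower, beside 20.9% of members higher and 0 lower by limma. At an unadjusted p under 0.05, 1 member was lower there, and 3 were lower with the replicate block. The share of all genes called with the block is not given here. The median log2 change of the members was 0.05 and 0.13, beside -0.07 and -0.06 over all tested genes. Without control 0 h replicate 1 or control 6 h replicate 2 the control count fell to 7 or 8, and with the replicate block the c-Fos count rose to 14.

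Earlier times held fewer calls. At 1 h, limma called 1 member with control shRNA (3.12% of all genes were called) and 2 with c-Fos shRNA (3.38%), 1 of these higher and 1 lower (1.96% and 1.42%). At 3 h it called 8 with control shRNA (30.2% of all genes) and 9 with c-Fos shRNA (28.2%), or 18.6% and 20.9% of members. In the control arm 5 were higher and 3 lower (11% and 19.3% of all genes), and in the c-Fos arm 7 and 2 (9.9% and 18.3%). Each arm had, with the replicate block, 7 higher and 6 lower at 3 h, 13 in all. The 1, 3 and 6 h contrasts of an arm share its 0 h arrays, so they are not independent of each other.

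**Figure D1:**
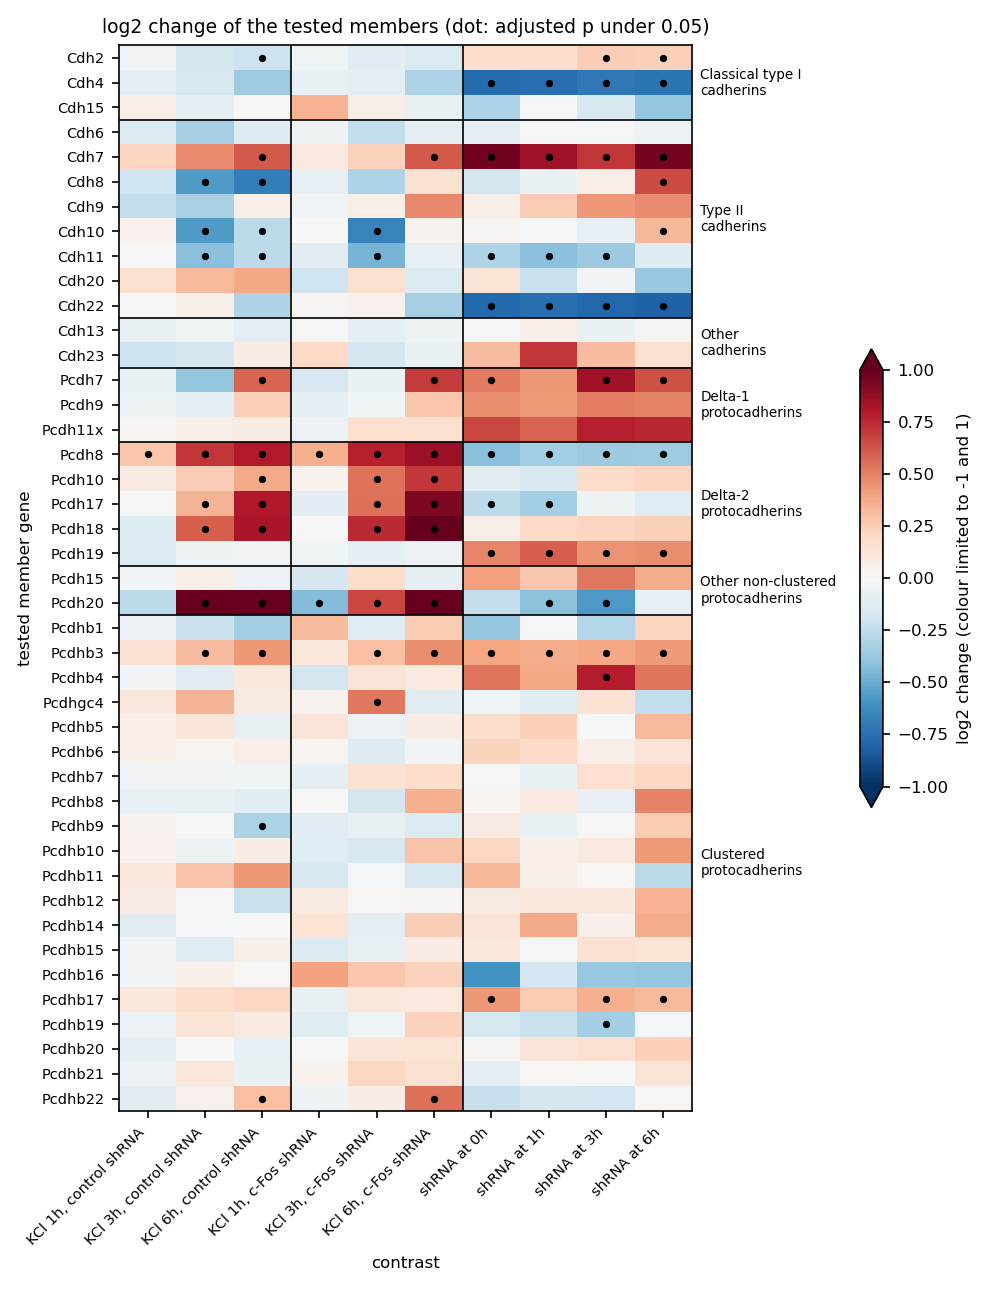
Heat map of the log2 change of each of the 43 tested members (rows, grouped by role) in the 6 KCl contrasts and the 4 shRNA contrasts (columns). Colour gives the change, red higher and blue lower and limited to values between -1 and 1, and a dot marks an adjusted p under 0.05. The red block at 3 and 6 h of KCl in both arms is 4 of the 5 delta-2 protocadherins with Pcdh20, and Cdh4, Cdh7, Cdh22, Pcdh8, Pcdh19 and Pcdhb3 keep the same colour and a dot in all 4 shRNA columns.

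Pcdh20, a non-clustered protocadherin outside the delta subgroups, had the largest rise of the tested members at 6 h in both arms, followed by the delta-2 members Pcdh18, Pcdh17 and Pcdh8. The delta-2 member Pcdh10 rose by 0.38 and 0.70. These 5 genes were each called higher at 6 h in both arms, although their earlier time courses differed. Their promoter windows are given because of these shared calls. The windows are the 250 bases before the RefSeq start on build GRCm38.p6, 5′ to 3′ on the gene's strand. They lie at chr14:79771313-79771562 (minus strand), chr14:88471397-88471646 (minus), chr14:84443313-84443562 (plus), chr3:49757317-49757566 (minus) and chr3:45378148-45378397 (plus). Capitals mark any TGACG (the core of a cAMP response element), TGANTCA (an AP-1 site), MEF2 site or TATAAA, on either strand.
Pcdh8: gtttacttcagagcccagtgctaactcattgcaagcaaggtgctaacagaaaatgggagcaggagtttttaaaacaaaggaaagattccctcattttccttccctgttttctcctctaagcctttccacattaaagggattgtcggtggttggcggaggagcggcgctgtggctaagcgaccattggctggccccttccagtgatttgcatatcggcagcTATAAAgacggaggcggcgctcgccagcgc
Pcdh20: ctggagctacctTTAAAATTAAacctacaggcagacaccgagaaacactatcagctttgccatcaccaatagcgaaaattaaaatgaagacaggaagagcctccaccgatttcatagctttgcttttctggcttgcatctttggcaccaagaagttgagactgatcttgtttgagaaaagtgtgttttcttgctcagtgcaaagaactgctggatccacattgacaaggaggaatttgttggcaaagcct
Pcdh17: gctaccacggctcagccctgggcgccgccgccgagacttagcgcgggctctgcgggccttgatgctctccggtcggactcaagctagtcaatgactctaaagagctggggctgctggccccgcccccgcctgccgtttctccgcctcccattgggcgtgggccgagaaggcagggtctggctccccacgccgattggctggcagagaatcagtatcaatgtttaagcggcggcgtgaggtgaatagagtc
Pcdh18: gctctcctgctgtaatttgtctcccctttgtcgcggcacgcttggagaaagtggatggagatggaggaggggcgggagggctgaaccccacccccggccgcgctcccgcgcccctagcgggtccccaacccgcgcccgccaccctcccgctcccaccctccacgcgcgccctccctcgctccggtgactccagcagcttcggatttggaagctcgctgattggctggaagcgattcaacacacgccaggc
Pcdh10: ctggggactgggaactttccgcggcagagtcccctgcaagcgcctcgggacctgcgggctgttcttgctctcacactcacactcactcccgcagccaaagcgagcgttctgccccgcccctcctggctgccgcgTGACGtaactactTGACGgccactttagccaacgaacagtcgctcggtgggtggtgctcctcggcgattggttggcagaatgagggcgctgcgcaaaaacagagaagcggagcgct
The Pcdh8 window held a TATAAA that begins 30 bases before the start. In the Pcdh20 window a MEF2 site began 238 bases before the start, and the Pcdh10 window held TGACG at 116 and at 103 bases. No marked motif occurred in the Pcdh17 or Pcdh18 window. Pcdh7 and Cdh7 were also called higher at 6 h in both arms. Their windows are not printed and held none of the marked motifs.

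Windows were available for 20 of the 56 members, 18 of them tested. TGACG occurred in windows of 3 of these 20, the MEF2 site in 2 and TATAAA in 2, beside 17.8%, 2.92% and 12.4% of all 32851 windows of that length. The full TGACGTCA element, which contains TGACG, and TGANTCA were in 0 of the 20, beside 1.55% and 6.75% of all windows. A match is a description of the letters and not a bound site, and no match says only that these letters are not in the window.

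Pcdh8, also called arcadlin, is a delta-2 protocadherin known for being induced by synaptic activity and for taking N-cadherin off the membrane. Pcdh8 intensity in the control arm was 8060 and 8139 (0 h), 9768 and 10523 (1 h), 13275 and 13986 (3 h), and 13993 and 14641 (6 h). In the c-Fos arm it was 5844 and 6292, then 7817 and 8020, 10385 and 10789, and 10987 and 11513. Each time's arrays lay above those of the time before in both arms, and every c-Fos array lay below both control arrays of its time. The log2 rise at 1 h was 0.28 ± 0.03 (SE) with control shRNA (limma adjusted p = 0.000418) and 0.36 with c-Fos shRNA (adjusted p = 5.56e-05). At 6 h it was 0.79 (adjusted p = 1.21e-08) and 0.86 (adjusted p = 8.49e-09), a 1.73-fold and 1.81-fold rise. Pcdh8 was the only tested member called higher at 1 h in either arm, beside 2.3% and 1.96% of all genes called higher. The other Pcdh8 probe set rose by 0.64 and 0.87 at 6 h.

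Pcdh20 intensity was 600 and 621 (0 h) in the control arm, 505 and 551 (1 h), 1313 and 1123 (3 h), and 2141 and 2159 (6 h). With c-Fos shRNA it was 506 and 520, 352 and 414, 820 and 773, and 2028 and 1967. The 1 h arrays were the lowest of each arm and the 6 h arrays the highest, with no overlap between neighbouring times. At 6 h the log2 rise was 1.81 ± 0.10 (limma adjusted p = 5.39e-08), 3.51-fold, with control shRNA and 1.97 ± 0.10 (adjusted p = 5.07e-08), 3.91-fold, with c-Fos shRNA. The dip at 1 h was called with c-Fos shRNA (-0.43, adjusted p = 0.0313) and not with control shRNA (-0.26, adjusted p = 0.284). That dip was lost without c-Fos 0 h replicate 1, 0 h replicate 2 or 1 h replicate 1 (adjusted p up to 0.262), and also without quantile normalization, with arrays shifted to one median and with the mean of probe sets. A second probe set of Pcdh20 rose by 2.18 and 2.31 at 6 h and showed no call at 1 h.

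Pcdh17, which lies along axons and at synapses of corticobasal circuits, rose later than Pcdh8. Control arrays read 4319 and 4424 (0 h), 4272 and 4555 (1 h), 5728 and 5658 (3 h), and 7757 and 7905 (6 h). The c-Fos arrays read 3451 and 3892, 3318 and 3664, 5818 and 5167, and 7150 and 7152. The 0 and 1 h arrays overlapped in each arm, and the 3 and 6 h arrays lay above them. The log2 change at 6 h was 0.80 ± 0.07 (limma adjusted p = 2.16e-06) with control shRNA and 0.94 ± 0.07 (adjusted p = 8.44e-07) with c-Fos shRNA. Its other probe set rose by 0.92 and 1.48.

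Pcdh18, a delta-2 member that binds the reelin adaptor Dab1, read 770 and 761 at 0 h in the control arm and 1213 and 1470 at 6 h. With c-Fos shRNA the 0 h arrays stood at 598 and 1066 and the 6 h arrays at 1523 and 1649. The 0 h and 6 h arrays did not overlap in either arm, although the c-Fos 0 h arrays lay far apart. The log2 rise at 6 h was 0.82 ± 0.19 (limma adjusted p = 0.00318) and 1.00 ± 0.19 (adjusted p = 0.000955). At 3 h it was 0.60 (adjusted p = 0.0289), lost without control 0 h replicate 1, 0 h replicate 2 or 3 h replicate 2 (adjusted p up to 0.171). With c-Fos shRNA the 3 h rise was 0.75 (adjusted p = 0.0093), lost without c-Fos 0 h replicate 1 or 3 h replicate 1 (adjusted p up to 0.0941). A dimmer Pcdh18 probe set rose by 2.09 with control shRNA and 1.38 with c-Fos shRNA at 6 h, and was lower in the c-Fos arm at 3 and 6 h (-0.98 and -0.67, adjusted p = 0.00194 and 0.0192). On the average of times 2 of the 3 Pcdh18 probe sets were called lower in the c-Fos arm, while the brightest gave 0.18 without a call (adjusted p = 0.138, and 0.0245 with the replicate block).

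Pcdh10, which recruits the WAVE actin complex to cell contacts, rose from 1378 and 1583 at 0 h to 1804 and 2089 at 6 h with control shRNA. With c-Fos shRNA it rose from 1231 and 1509 to 2087 and 2360. The 0 and 6 h arrays did not overlap in either arm. The log2 change was 0.38 ± 0.11 (limma adjusted p = 0.0103) and 0.70 ± 0.11 (adjusted p = 0.000177). The control call was lost without control 0 h replicate 1 or 6 h replicate 2 (adjusted p up to 0.093). Its 6 probe sets above the filter did not move alike: at 6 h with control shRNA their changes ran from -0.49 to 1.06, with 3 called higher. Another probe set of similar brightness read 1357 and 1699 at 0 h and 930 and 1209 at 6 h with control shRNA. Its c-Fos arrays, from 1836 to 2629, all lay above its control arrays. Between the arms, Pcdh10 probe sets were called in opposite directions. At 0 h 1 was higher and 1 lower, and on the average of times 1 was higher and 2 lower.

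Pcdh19, mutated in an X-linked epilepsy, was the delta-2 member with no KCl call in either arm. Its log2 change at 6 h was -0.04 with control shRNA and -0.06 with c-Fos shRNA.

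**Figure D2:**
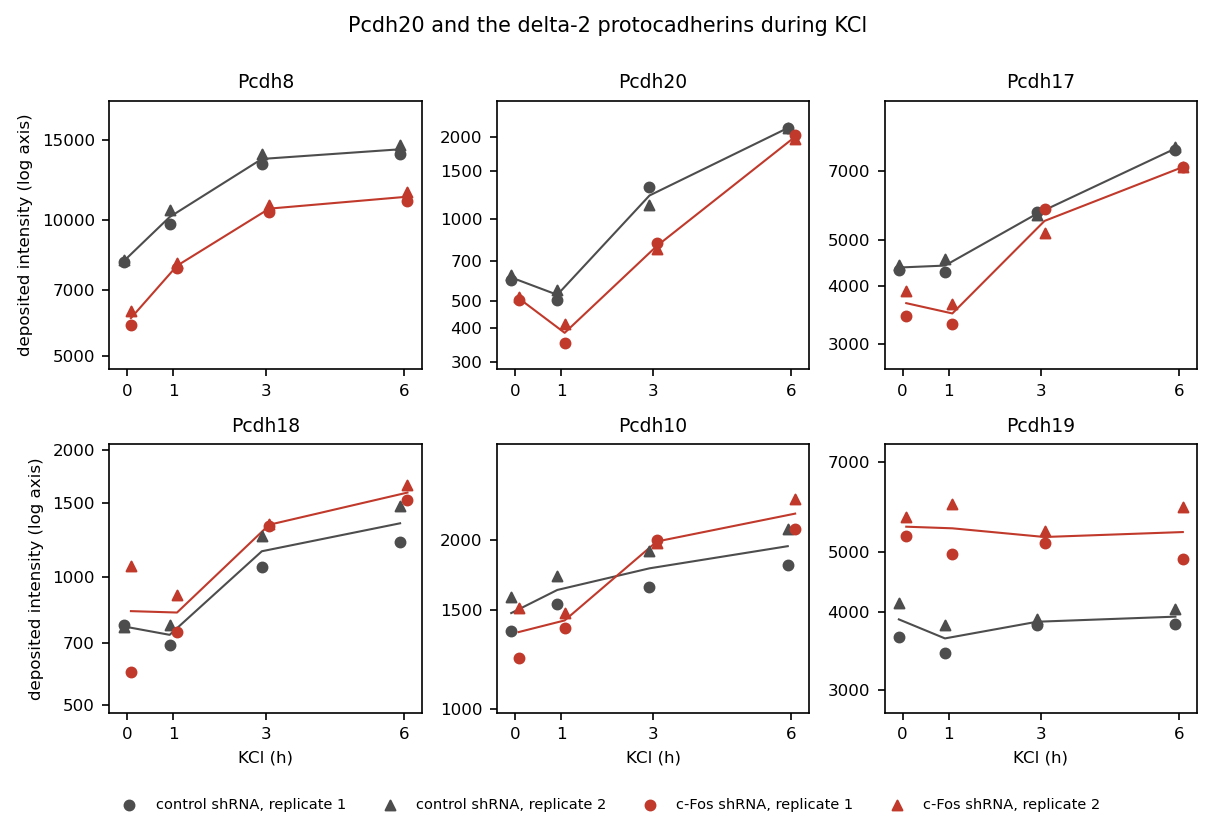
Deposited intensity (log axis) of Pcdh20 and the 5 delta-2 protocadherins against hours of KCl, with a marker per array (circle replicate 1, triangle replicate 2). Grey is control shRNA and red c-Fos shRNA, and lines run through the group means of intensity. Pcdh8 climbs from 1 h with the red arrays below the grey, Pcdh20 dips at 1 h and ends at 1967 or more on every array, and Pcdh19 stays flat with the red arrays above the grey.

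Among the delta-1 protocadherins, Pcdh7 was higher at 6 h in both arms. Pcdh7 intensity was 1069 and 1069 (0 h), 825 and 794 (3 h), and 1768 and 1474 (6 h) with control shRNA. With c-Fos shRNA it was 1576 and 1520, 1410 and 1524, and 2756 and 2304. In both arms the 6 h arrays were the highest. The log2 change at 6 h was 0.59 ± 0.17 (limma adjusted p = 0.015) and 0.70 ± 0.17 (adjusted p = 0.00585). The control call was lost without control 0 h replicate 1, 0 h replicate 2 or 6 h replicate 1 (adjusted p up to 0.124), and the c-Fos call without c-Fos 6 h replicate 1 (adjusted p = 0.0651). Both dimmer Pcdh7 probe sets were called higher at 6 h in each arm, and already at 3 h with control shRNA (1.18 and 0.69), as was the former with c-Fos shRNA (1.05). The brightest probe set changed by -0.39 at 3 h with control shRNA (adjusted p = 0.118, and 0.0181 with the replicate block), so the probe sets differed in direction there. Pcdh9 changed by 0.24 and 0.27 at 6 h, called only with the replicate block (adjusted p = 0.00302 and 0.00126), and a dimmer Pcdh9 probe set rose by 1.29 and 1.39. Pcdh11x changed by 0.07 and 0.16 with no call.

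Calls among the 8 tested type II cadherins went in both directions. At 3 h with control shRNA, 3 were lower (Cdh8, Cdh10 and Cdh11), 37.5% beside 19.3% of all genes. At 6 h the same 3 were lower with control shRNA, beside 27.4% of all genes, and 1, Cdh7, was higher. The median change of the 8 at 6 h was -0.19 with control shRNA and -0.02 with c-Fos shRNA. With c-Fos shRNA, Cdh10 and Cdh11 were lower at 3 h and no type II member was called lower by limma at 6 h, where the replicate block called 1, Cdh22.

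Cdh10, a type II cadherin of cortical and thalamic neurons, was lower at 3 h in both arms. By 6 h its brightest probe set was back at its starting level in the c-Fos arm and still called lower in the control arm. Control arrays read 2872 and 2589 (0 h), 2038 and 1741 (3 h), and 2367 and 2234 (6 h), and c-Fos arrays 2847 and 2712, 1755 and 1741, and 2813 and 2958. The 3 h arrays lay below all others of their arm. The log2 change at 3 h was -0.56 ± 0.09 (limma adjusted p = 0.000388) with control shRNA and -0.67 ± 0.09 (adjusted p = 0.000121) with c-Fos shRNA. At 6 h it was -0.27 (adjusted p = 0.0252) and 0.04 (adjusted p = 0.783). The control call at 6 h was lost without control 0 h replicate 1 or 6 h replicate 2 (adjusted p up to 0.181). The interaction at 6 h was 0.31 (adjusted p = 0.288), called with the replicate block (adjusted p = 0.0261). A dimmer Cdh10 probe set fell in both arms at 6 h, by 1.59 and 1.57.

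Cdh11, prominent in mesenchyme and also found at excitatory synapses, read 2988 and 2937 at 0 h and 2307 and 2240 at 3 h with control shRNA, and 2241 and 2545 against 1720 and 1718 with c-Fos shRNA. The 0 and 3 h arrays did not overlap in either arm. The log2 change was -0.42 ± 0.09 (limma adjusted p = 0.0025) and -0.47 ± 0.09 (adjusted p = 0.00126). At 6 h with control shRNA the change was -0.26 (adjusted p = 0.0243), lost without control 0 h replicate 1, 0 h replicate 2 or 6 h replicate 1 (adjusted p up to 0.14). With c-Fos shRNA at 6 h the brightest probe set changed by -0.08, while the other probe set fell by 0.90.

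N-cadherin (Cdh2), the main cadherin of neuronal synapses, was nearly level. Its 0 h arrays read 8428 and 8362 and its 6 h arrays 7787 and 7197 with control shRNA, a log2 change of -0.21 ± 0.07 (limma adjusted p = 0.0295). That call was lost without control 0 h replicate 1, 0 h replicate 2 or 6 h replicate 2 (adjusted p up to 0.239). The control call was also lost with the mean of probe sets (-0.11, limma adjusted p = 0.342) and with arrays shifted to one median (-0.14, adjusted p = 0.221). With c-Fos shRNA the change was -0.14 (adjusted p = 0.126), called with the replicate block (adjusted p = 0.00196). R-cadherin (Cdh4) changed by -0.35 and -0.31 at 6 h, called only with the block (adjusted p = 0.000479 and 0.00166). Cdh13, a cadherin tethered to the membrane by a lipid anchor and without a cytoplasmic tail, stood between 7919 and 8825 on all 16 arrays. Its change at 6 h with control shRNA was -0.10 (adjusted p = 0.0523), with a 95% interval from -0.18 to -0.02, and it was called with the block (adjusted p = 0.0247).

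Most tested clustered protocadherins, all of them Pcdhb genes but Pcdhgc4, showed no KCl call. Of 20 tested, 2 were higher and 1 lower at 6 h with control shRNA, 10% and 5% beside 16.7% and 27.4% of all genes. With c-Fos shRNA 2 were higher and 0 lower by limma, beside 16.1% and 24.9% of all genes. Pcdhb3 read 211 and 226 at 0 h and 279 and 292 at 6 h with control shRNA, and 269 and 308 against 361 and 413 with c-Fos shRNA. The 0 and 6 h arrays did not overlap in either arm. The rise was 0.44 ± 0.10 (limma adjusted p = 0.0025) and 0.46 ± 0.10 (adjusted p = 0.00186). Pcdhb22 rose by 0.30 (adjusted p = 0.0428) and 0.55 (adjusted p = 0.00152), the former lost without control 0 h replicate 1, 6 h replicate 1 or 6 h replicate 2 (adjusted p up to 0.291). Pcdhb9 was lower at 6 h with control shRNA (-0.32, adjusted p = 0.048), lost without control 0 h replicate 2, 6 h replicate 1 or 6 h replicate 2 (adjusted p up to 0.303). Pcdhgc4, a C-type gamma isoform, was higher at 3 h with c-Fos shRNA (0.53, adjusted p = 0.0494), lost without c-Fos 0 h replicate 2 or 3 h replicate 1 (adjusted p up to 0.456). Clustered genes are close copies of each other, and how far their probe sets cross-hybridise was not tested.

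Some cell type markers also changed with KCl. Of 8 pan-neuronal markers, 3 were higher and 1 lower at 6 h with control shRNA, and 4 and 1 with c-Fos shRNA. Pan-neuronal sums ran from 73080 to 76570 at 0 h and from 80960 to 85250 at 6 h in the control arm. In the c-Fos arm they ran from 68940 to 73180 and from 79150 to 80080. At 6 h, 5 of 8 inhibitory neuron markers were higher with control shRNA and 6 of 8 with c-Fos shRNA. Of all genes, 16.7% and 16.1% were higher. The summed inhibitory markers ran from 16640 to 17210 at 0 h and from 22000 to 23430 at 6 h in the control arm. In the c-Fos arm they ran from 15570 to 16010 and from 23950 to 24720. Of 8 astrocyte markers, 1 was called lower with control shRNA, beside 27.4% of all genes. With c-Fos shRNA 1 was higher and 1 lower, beside 16.1% and 24.9% of all genes. The astrocyte sums ran from 21170 to 25570 at 0 h and from 17240 to 20420 at 6 h in the control arm. In the c-Fos arm the sums ran from 18660 to 23040 and from 15430 to 18830. The part of any of these markers in the members' changes was not tested.

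Between the arms, members differed in both directions. With c-Fos shRNA, Cdh4, Cdh22 and Pcdh8 were lower at every time, and Cdh7, Pcdh19 and Pcdhb3 were higher at every time. Before KCl, 5 members were higher and 5 lower, and at 6 h 8 were higher and 3 lower. The same split was 12% and 10.3% of all genes at 0 h and 13.4% and 10.4% at 6 h. At 1 h 3 members were higher and 6 lower (10.8% and 9.98% of all genes), and at 3 h 7 and 6 (12.4% and 10.9%). At 0 h 22.3% of all genes were called, at 1 h 20.7%, at 3 h 23.3% and at 6 h 23.8%, beside 10, 9, 13 and 11 of the 43 members. The members' shares, 23.3%, 20.9%, 30.2% and 25.6%, were near those of all genes at 0, 1 and 6 h. The 0 h count was 6 without replicate 1 of either arm, the 3 h count 6 without control 3 h replicate 1 and 7 without c-Fos 3 h replicate 2, and the 6 h count 7 without c-Fos 6 h replicate 1.

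Neuronal markers differed between the arms beside these members. Summed excitatory markers ran from 25570 to 26630 with control shRNA and from 21240 to 21310 with c-Fos shRNA at 0 h, and from 26270 to 28040 and 24510 to 26530 at 6 h. The arms did not overlap in that sum at 0, 1 and 3 h and overlapped at 6 h. On the average of times, 3 of 8 pan-neuronal markers were higher and 5 lower with c-Fos shRNA, 2 of 7 excitatory markers higher and 3 lower, and 4 of 8 progenitor markers lower and 0 higher by limma. Of all genes, 25.2% were higher and 22.7% lower on that average. The median log2 difference of the 7 excitatory markers was 0.14, although their sums were lower. The part of these markers in the members' differences was not tested.

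Averaged over the 4 times, 9 members were higher and 8 lower (47.9% of all genes were called, 25.2% higher and 22.7% lower). On the log2 scale, all 8 arrays of one arm lay beyond all 8 of the other for 5 members, 3 higher (Cdh7, Pcdh19, Pcdhb17) and 2 lower (Cdh4, Cdh22), as for 9.61% of all genes, 5.53% higher and 4.07% lower. Calls with the replicate block rose from 9 to 14 at 1 h (8 higher and 6 lower) and from 11 to 19 at 6 h (16 higher and 3 lower). At 3 h the block gave 12 higher and 6 lower, and on the average of times 15 and 10. So at 1 h the lower calls outnumbered the higher without the block, and the higher the lower with it. The shares of all genes called higher and lower with the block are not given here. These splits are therefore not shown to be particular to the members.

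R-cadherin (Cdh4), a classical type I cadherin of developing brain nuclei, was lower in the c-Fos arm throughout. Its 8 control arrays ran from 3669 through a median of 4607 to 5497, and its 8 c-Fos arrays from 2381 through 2802 to 3023. The arms did not overlap. At 0, 1, 3 and 6 h the log2 difference was -0.77 ± 0.15, -0.76, -0.71 and -0.73 (limma adjusted p = 0.00224, 0.00273, 0.00347 and 0.0034), between 1.64-fold and 1.71-fold lower. The 3 h call was lost without control 3 h replicate 1 (-0.56, adjusted p = 0.0502). A second Cdh4 probe set was lower at all 4 times, by 0.75 to 0.95. With the mean of a gene's probe sets in place of the brightest, the 1, 3 and 6 h calls were lost (adjusted p = 0.0979, 0.0608 and 0.166).

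Cdh22, a type II cadherin first described in pituitary and brain, ran from 441 through a median of 602 to 661 with control shRNA and from 204 through 330 to 395 with c-Fos shRNA. Again no array of either arm fell in the range of the other. The log2 difference was -0.77 ± 0.15 at 0 h (limma adjusted p = 0.0029) and -0.81 ± 0.15 at 6 h (adjusted p = 0.00226), and no call at any time was lost with an array left out. Cdh7, also type II, went the other way, from 89.2 through 118 to 174 in the control arm and from 181 through 225 to 335 in the c-Fos arm. Its difference was 0.96 ± 0.17 at 0 h (adjusted p = 0.00171), 1.95-fold, and 0.96 at 6 h (adjusted p = 0.00182). The Cdh7 calls at 1 and 3 h (0.84 and 0.71) were lost without control 1 h replicate 1 (adjusted p = 0.0509), and without control 3 h replicate 1 or c-Fos 3 h replicate 2 (adjusted p up to 0.122). Its KCl rise at 6 h, 0.61 in each arm, was lost without replicate 1 at 0 h or replicate 2 at 6 h of the arm concerned (adjusted p up to 0.128 and 0.094). With the mean of probe sets that rise was 0.11 and 0.32 without a call (adjusted p = 0.646 and 0.134), and neither of the 2 other Cdh7 probe sets was called for KCl at 6 h, although both were higher in the c-Fos arm on average.

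Of the delta-2 protocadherins, Pcdh8 was lower and Pcdh19 higher with c-Fos shRNA at every time. For Pcdh8 the log2 difference at 0, 1, 3 and 6 h was -0.42 ± 0.03, -0.34, -0.36 and -0.35 (limma adjusted p from 6.38e-06 to 3.19e-05). Pcdh19 ran from 3441 through 3826 to 4148 in the control arm and from 4872 through 5357 to 5975 in the c-Fos arm, without overlap. Its difference was 0.49 ± 0.09 at 0 h (adjusted p = 0.00243), 0.59 at 1 h, 0.45 at 3 h and 0.47 at 6 h (adjusted p = 0.0033), a second probe set was higher at all 4 times by 0.32 to 0.45, and the dimmest had no call. Pcdh17 was lower at 0 and 1 h (-0.26 and -0.34, adjusted p = 0.0173 and 0.00377), and its differences at 3 and 6 h were -0.05 and -0.12 without a call. The 0 h call was lost without c-Fos 0 h replicate 1 or either control 0 h array (adjusted p up to 0.131). Pcdh20 was lower at 1 h (-0.41, adjusted p = 0.0102) and 3 h (-0.57, adjusted p = 0.00114), and -0.08 at 6 h, the 1 h call being lost without c-Fos 1 h replicate 1 or control 1 h replicate 2 (adjusted p up to 0.0903). The second Pcdh20 probe set gave -0.26 and -0.42 at these times without a call.

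**Figure D3:**
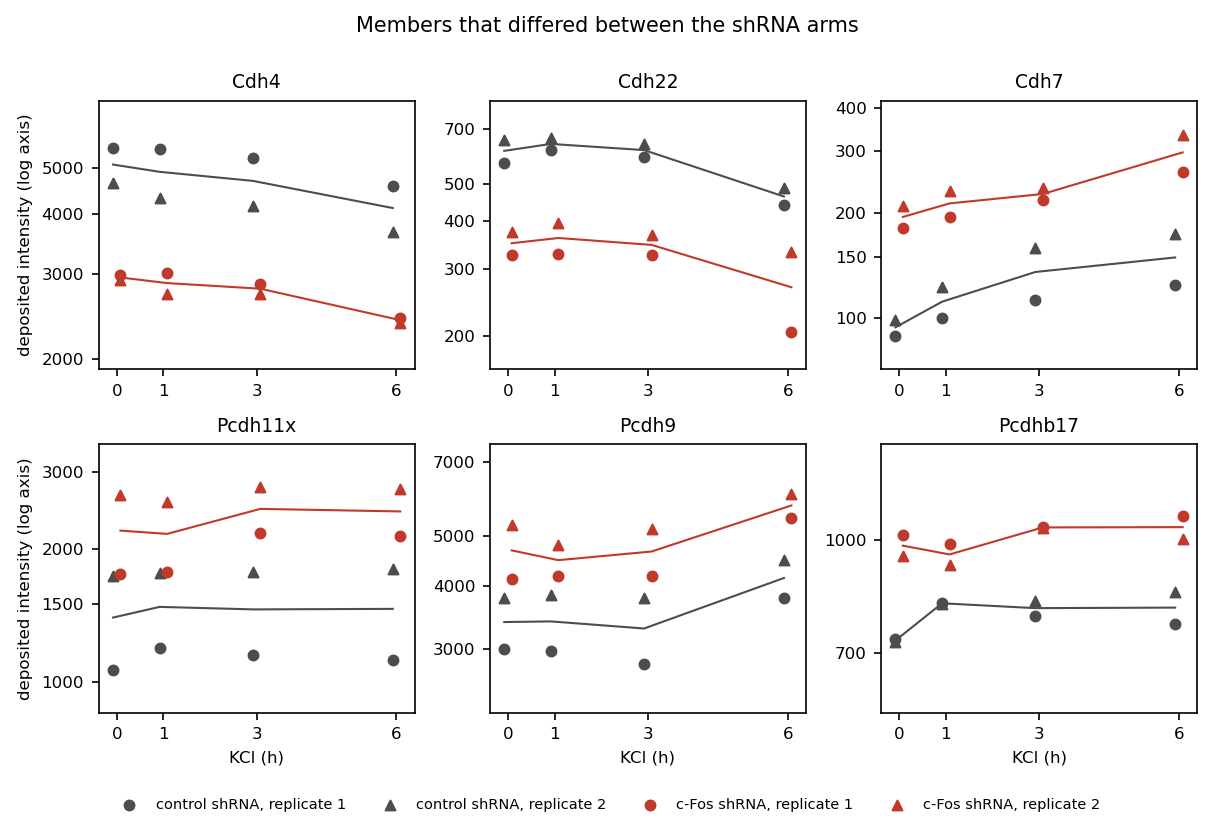
Deposited intensity (log axis) of Cdh4, Cdh22, Cdh7, Pcdh11x, Pcdh9 and Pcdhb17 against hours of KCl, with a marker per array. Grey is control shRNA and red c-Fos shRNA, with circles for replicate 1 and triangles for replicate 2. Lines run through the group means of intensity. Red lies below grey for Cdh4 and Cdh22 and above it for Cdh7 and Pcdhb17 without overlap, while for Pcdh11x and Pcdh9 the triangles sit above the circles in both arms.

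The 3 tested delta-1 protocadherins, long-tailed members that bind phosphatases or nuclear regulators, were all higher with c-Fos shRNA on the average of the 4 times. Pcdh11x ran from 1065 to 1809 in the control arm and from 1757 to 2769 in the c-Fos arm, and replicate 2 read above replicate 1 in all 8 groups. Its difference was 0.67, 0.58, 0.78 and 0.76 at 0, 1, 3 and 6 h without a call (limma adjusted p from 0.0949 to 0.227), and 0.70 ± 0.16 on average (adjusted p = 0.00268). With the replicate block it was called at each time (adjusted p = 1.36e-05, 5.69e-05, 2.46e-06 and 3.92e-06). Pcdh9 differed by 0.46, 0.42, 0.51 and 0.49 and by 0.47 ± 0.09 on average (adjusted p = 0.000677), and was likewise called at each time with the block (adjusted p = 1.61e-05, 4.41e-05, 5.42e-06 and 8.64e-06). Pcdh7 differed by 0.52 at 0 h (adjusted p = 0.0485, lost without any of the 4 arrays, adjusted p up to 0.212), 0.84 at 3 h (adjusted p = 0.00351) and, by 6 h, 0.64 (adjusted p = 0.0185, lost without c-Fos 6 h replicate 1 or control 6 h replicate 2, adjusted p up to 0.137). With the mean of probe sets every Pcdh7 call between the arms was lost (0.14 on average, adjusted p = 0.121). The average call of Pcdh9 was lost in the same way (0.08, adjusted p = 0.279). The dimmer probe sets of Pcdh7 and Pcdh9 did not share the difference: on average they gave -0.28 (called lower) and 0.08 for Pcdh7, and -0.19 and -0.03 for Pcdh9. The other Pcdh11x probe set was higher by 0.64 on average and called at 0, 3 and 6 h.

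Smaller differences were found for Cdh11, Cdh2 and Cdh10. Cdh11 was lower at 0 h (-0.31, limma adjusted p = 0.0199), 1 h (-0.42, adjusted p = 0.00397) and 3 h (-0.36, adjusted p = 0.00834). The 0 h call was lost without c-Fos 0 h replicate 1 or either control 0 h array, and the 3 h call without c-Fos 3 h replicate 2 or control 3 h replicate 1 (adjusted p up to 0.138 and 0.0663). Cdh2 was higher at 3 h (0.24, adjusted p = 0.0237) and 6 h (0.24, adjusted p = 0.0256), lost without c-Fos replicate 1 or control replicate 2 of that time (adjusted p up to 0.174 and 0.188). Both Cdh2 calls were also lost with the mean of probe sets (limma adjusted p = 0.136 at 3 h and 0.243 at 6 h). With the replicate block Cdh2 was also called at 0 and 1 h (adjusted p = 0.000608 and 0.000813). Cdh10 was higher at 6 h (0.34, adjusted p = 0.0167), lost without either c-Fos 6 h array or control 6 h replicate 2 (adjusted p up to 0.101), and a dimmer Cdh10 probe set differed by 1.12 on average.

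Few clustered members, all of them Pcdhb genes but Pcdhgc4, were called between the arms, and in both directions. Averaged over times, 3 of 20 were higher (Pcdhb3, Pcdhb4, Pcdhb17) and 2 lower (Pcdhb19, Pcdhb22), 15% and 10% beside 25.2% and 22.7% of all genes, and with the replicate block 5 and 3. The median difference of the 20 was 0.12 on average and 0.23 at 6 h, beside 0.02 and 0.02 over all genes. Pcdhb17 ran from 726 through 802 to 848 in the control arm and from 924 through 1007 to 1078 in the c-Fos arm, without overlap. At 0, 3 and 6 h its difference was 0.43 ± 0.09, 0.35 and 0.32 (limma adjusted p = 0.00459, 0.014 and 0.0225), and at 1 h it was 0.25, called only with the block (adjusted p = 0.0726 without and 0.0197 with it). The 0 h call was lost without c-Fos 0 h replicate 1 (adjusted p = 0.0579). The 3 h call was lost without either c-Fos 3 h array or control 3 h replicate 1, and the 6 h call without replicate 1 of either arm (adjusted p up to 0.094 and 0.167).

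Pcdhb3 was higher with c-Fos shRNA by 0.40, 0.37, 0.39 and 0.42 ± 0.10 at 0, 1, 3 and 6 h (limma adjusted p = 0.0099, 0.0162, 0.011 and 0.0067). Its arrays overlapped between arms over the whole series, since the level also rose with KCl. The calls at 0, 1 and 3 h were each lost without c-Fos replicate 2 or control replicate 1 of that time (adjusted p up to 0.128). At 3 h, Pcdhb4 was higher (0.78, adjusted p = 0.0416) and Pcdhb19 lower (-0.34, adjusted p = 0.0428). The Pcdhb4 call was lost without c-Fos 3 h replicate 2 or either control 3 h array, and the Pcdhb19 call without any of the 4 (adjusted p up to 0.252 and 0.183). The average for Pcdhb22 (-0.14, adjusted p = 0.0491) was lost in 12 of 16 fits that left out an array. Probe sets of the Pcdha cluster name several genes each and lie outside the rule. Of 6, 5 were above the filter, and the brightest, shared by 14 genes, ran from 9255 to 11006 with no call in any contrast. Another shared by 14 genes was lower with c-Fos shRNA at 0 h (-0.42, adjusted p = 0.00692) and 1 h (-0.36, adjusted p = 0.0167).

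**Figure D4:**
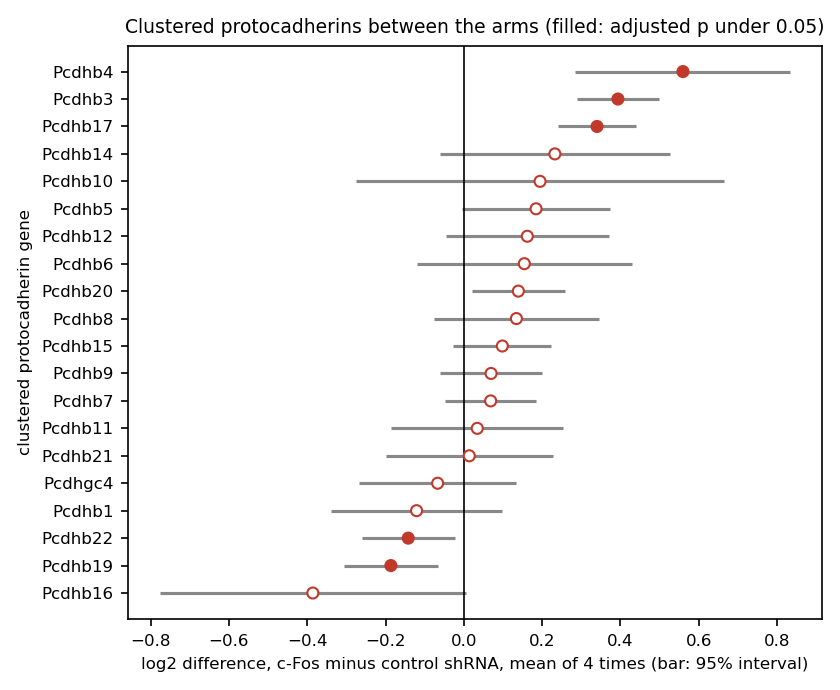
Log2 difference between c-Fos and control shRNA, averaged over the 4 times, for the 20 tested clustered protocadherins, ordered by size, with bars for the 95% interval and filled points for an adjusted p under 0.05. The points run from Pcdhb4 at 0.56 to Pcdhb16 at -0.39, and 5 are filled. All but Pcdhgc4 are Pcdhb genes.

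Limma called a KCl response that differed between the arms for 1 tested member, Cdh8, without the replicate block, and for 3 with it. Cdh8 is a type II cadherin that marks subsets of cortical layers and is known from layer-specific synapses. Its interaction, the c-Fos arm's KCl change less the control arm's, was called at 6 h, where 1.24% of all genes were called, 0.453% in its direction and 0.783% in the other. At 1 h and 3 h limma called 0 members, beside 0.0431% and 0.402% of all genes, and at an unadjusted p under 0.05 the counts were 0 and 1. With the replicate block the 6 h count was 3, Cdh8, Cdh10 and Pcdh10. The promoter window of Cdh8 is shown because its interaction was called both without and with the block. The window lies at chr8:99416472-99416721 (minus strand, GRCm38.p6, RefSeq), and its capitals mark a TGACG read on the other strand, 8 bases before the start.
Cdh8: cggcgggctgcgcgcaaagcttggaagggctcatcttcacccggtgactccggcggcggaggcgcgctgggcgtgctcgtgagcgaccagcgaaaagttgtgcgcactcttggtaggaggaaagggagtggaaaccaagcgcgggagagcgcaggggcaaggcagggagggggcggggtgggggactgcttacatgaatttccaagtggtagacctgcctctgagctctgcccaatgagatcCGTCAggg

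Cdh8 intensity with control shRNA was 1054 and 1085 (0 h), 1004 and 969 (1 h), 721 and 704 (3 h), and 622 and 663 (6 h). With c-Fos shRNA it was 1016 and 891, 841 and 1017, 740 and 742, and 981 and 1093. The c-Fos arrays lay below the control arrays at 0 h, overlapped them at 1 h, lay slightly above them at 3 h and well above them at 6 h. With control shRNA the log2 change was -0.57 ± 0.11 at 3 h (limma adjusted p = 0.00173) and -0.69 ± 0.11 at 6 h (adjusted p = 0.000262). With c-Fos shRNA the 3 and 6 h changes were -0.31 and 0.15 without a call (adjusted p = 0.053 and 0.319), the former called with the replicate block (adjusted p = 0.0183). The difference between arms at 6 h was 0.65 ± 0.11 (adjusted p = 0.00113), 1.57-fold, and 3 h against 0 h gave an interaction of 0.25 (adjusted p = 0.834, 95% interval from -0.09 to 0.59).

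The Cdh8 interaction at 6 h was 0.84 ± 0.16 (limma adjusted p = 0.0275), and within replicate numbers 1 and 2 it was 0.65 and 1.03. It was lost in 7 of the 8 fits that left out an array (adjusted p from 0.0649 to 0.112), the exception being c-Fos 0 h replicate 1, and in a fit over all probe sets (adjusted p = 0.0539). With the replicate block it was called (adjusted p = 0.00174). The interactions at 1, 3 and 6 h share the 0 h arrays of both arms. The other Cdh8 probe sets gave interactions of 1.39 (adjusted p = 0.382) and 0.76 (adjusted p = 0.212), in the same direction and not called. Both fell at 6 h with control shRNA, by 1.68 and 0.70.

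**Figure D5:**
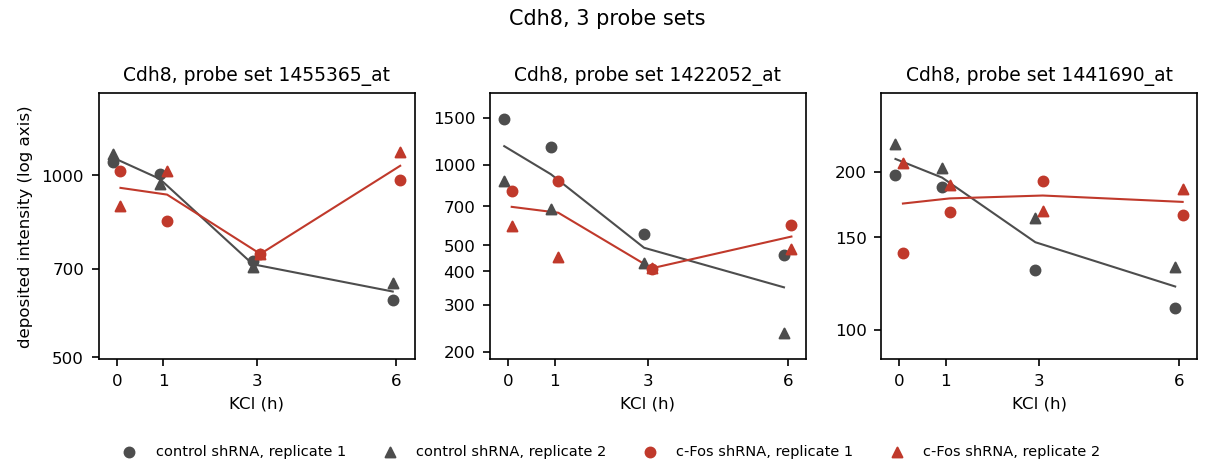
Deposited intensity (log axis) of the 3 Cdh8 probe sets above the filter against hours of KCl, with a marker per array. Grey is control shRNA and red c-Fos shRNA, with circles for replicate 1 and triangles for replicate 2. Lines run through the group means of intensity. In each panel the grey line falls to 6 h, and the red line ends above it. The brightest probe set is in the left panel, where both red arrays at 6 h read 981 or more and both grey arrays 663 or less.

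For the 5 KCl-raised protocadherins above, the 6 h interaction was 0.06 for Pcdh8 (95% interval from -0.04 to 0.17), 0.15 for Pcdh20 (-0.15 to 0.46), 0.14 for Pcdh17 (-0.08 to 0.35) and 0.18 for Pcdh18 (-0.39 to 0.75). For Pcdh10 it was 0.32 (0.00 to 0.65), with a limma adjusted p of 0.353, and 0.0338 with the replicate block. These intervals do not show that the arms responded alike, and that for Pcdh18 is wide. Within replicate numbers 1 and 2 the Pcdh18 value was 0.65 and -0.29. The dimmest Pcdh18 probe set rose less with c-Fos shRNA, as given above. Another Pcdh18 probe set read 205 and 211 at 0 h and 546 and 521 at 6 h with control shRNA. With c-Fos shRNA it read 236 and 210, then 440 and 444.

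Among genes that carry cadherin adhesion inside the cell, those called at 6 h of KCl were mostly higher. The lists of related genes used here were drawn up from textbook roles, and the share of all genes called at 6 h was 44.1% and 41% as above. By direction, 16.7% were higher and 27.4% lower with control shRNA, and 16.1% and 24.9% with c-Fos shRNA. Of 11 tested catenins and junction linkers, 6 were higher and 1 lower at 6 h with control shRNA, and 4 higher with c-Fos shRNA. p120-catenin (Ctnnd1), which keeps cadherins at the surface, rose by 0.83 ± 0.09 (limma adjusted p = 1.15e-05) with control shRNA and 0.86 with c-Fos shRNA. Vinculin (Vcl), which links catenins to actin, rose by 0.75 and 0.71 and was lower in the c-Fos arm by 0.54 on average (adjusted p = 9.62e-07). Alpha-catenin (Ctnna1) rose by 0.60 and 0.39, whereas beta-catenin (Ctnnb1) changed by -0.07 (adjusted p = 0.252, and 0.0486 with the replicate block).

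Of the 7 tested genes of cadherin cleavage, 2 were lower at 6 h with control shRNA and 3 with c-Fos shRNA. Among all genes 27.4% and 24.9% were lower. The presenilin gene Psen2, catalytic subunit of gamma-secretase, fell by 1.38 ± 0.14 (limma adjusted p = 6.34e-06) and by 1.10. Adam10, the protease that sheds the N-cadherin ectodomain, was higher with c-Fos shRNA by 1.41 ± 0.05 on average (adjusted p = 5.62e-10). Of 11 tested genes tied to clustered protocadherin promoter choice, 6 were lower at 6 h with control shRNA, beside 27.4% of all genes. With c-Fos shRNA 5 were lower and 1 higher, beside 24.9% and 16.1% of all genes. Dnmt3b, the methyltransferase that marks these promoters, fell by 0.93 ± 0.19 (adjusted p = 0.00173) and by 0.83. Stag2, a cohesin subunit, was higher with c-Fos shRNA at every time, by 0.52 to 0.60.

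Of the 13 tested cytoplasmic partners of protocadherins, 2 were higher and 3 lower at 6 h with control shRNA. With c-Fos shRNA the counts were 3 and 3. Among all genes 16.7% were higher and 27.4% lower with control shRNA, and 16.1% and 24.9% with c-Fos shRNA. Abi1 and Wasf2, parts of the WAVE complex, rose by 0.43 and 0.63 with control shRNA. Taok2, the kinase bound by Pcdh8, changed by 0.40 in each arm without a call (adjusted p = 0.107 and 0.114), and was called with the replicate block (adjusted p = 0.0187 and 0.0198). In the wider superfamily, of 16 tested genes 3 rose and 2 fell by 6 h with control shRNA. With c-Fos shRNA 3 rose and 3 fell, and the shares of all genes are those given for the partners. The desmosomal cadherin Dsc1 rose by 3.02 ± 0.29 (limma adjusted p = 4.51e-06) with control shRNA and by 1.43 with c-Fos shRNA, an interaction of -1.59 (adjusted p = 0.0905, and 0.00148 with the replicate block). The giant cadherin Fat1 rose by 1.13 and 0.90.

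No call was made in any contrast for 20 of the 43 tested members, among them Cdh6, Cdh9, Cdh13, Cdh15, Cdh20 and Cdh23. Of the 43, 34 were called with the replicate block in at least 1 contrast, these 6 included, and the other 9 were all Pcdhb genes. The matching shares of all genes over the contrasts are not given here. With the block, Cdh6 was lower at 3 h by 0.33 with control shRNA (limma adjusted p = 0.00317) and by 0.25 with c-Fos shRNA (adjusted p = 0.0211). Cdh20 was higher at 6 h with control shRNA (0.39, adjusted p = 0.0469), and Cdh15 lower in the c-Fos arm on average (-0.22, adjusted p = 0.0215). Several of these were dim or had arrays far apart: Cdh9, for example, read 605 and 808 at 6 h with control shRNA and 778 and 1267 with c-Fos shRNA, where the arms overlapped. Its difference of 0.47 ± 0.34 at 6 h had a limma adjusted p of 0.359, and 0.0124 with the replicate block. Pcdh15, the partner of Cdh23 in the tip links of hair cells, was called only with the block (0.39 on average, adjusted p = 0.00168), and Cdh23 likewise (0.37, adjusted p = 0.0282).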

How the data were processed

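RNA from 16 cultures (8 groups of 2) was hybridised to 1 array each. The deposited values were probe set intensity on a linear scale, from 0.51 to 23935.63, with array medians from 104.75 to 118.56. How they were summarized and scaled is not given in the sources used here. Precision is limited by the number of arrays. Of 45101 probe sets, 64 were controls, 34945 carried 1 gene, 932 several and 9160 none in the platform annotation, and 34741 matched RefSeq symbols.

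Values were quantile normalized and taken as log2(intensity + 16), and each gene was represented by its brightest probe set, kept where its mean lay above the 30th percentile. A fit over 8 groups in limma 3.58.1 (R 4.3.3) with Benjamini-Hochberg adjustment over 13915 genes gave all contrasts, and a call is an adjusted p under 0.05. It left 8 residual degrees of freedom. The method was tested on simulated data with independent noise on each array and planted changes larger than most of those reported here. That test does not cover smaller changes or arrays that deviate together.

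Same-numbered arrays deviated together: the correlation between groups was 0.364 to 0.596 (median 0.475), above 0.1 in 28 of 28 pairs of groups. The replicate number therefore pairs the arrays, and a fit with it as a block was run as an alternative. The share of all genes called in that fit is not given here, so its counts of members have no background beside them. Other alternatives were scaling, pseudocount, filter, the mean of probe sets, a fit of all probe sets and leaving out each array. The last but one, and the differences within a replicate number, were chosen after seeing the data.

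Genes given with full values were tested members called in at least 2 of the 14 contrasts, called in an interaction, or called with an absolute log2 change of at least 1, which named 19. Others are named where a count or description needed them and were chosen after their values were seen. The members and the gene lists were chosen with earlier results of these data known. Promoter windows come from RefSeq's table, and an E-box (CACGTG), a GC box (GGGCGG) and the CArG box were also searched, with the other motifs, on both strands.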

Additional observations from a re-analysis of the deposited data

Results flagged for a closer look

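The KCl response of Cdh8 at 6 h differed between the arms by a tested interaction: the log2 change with c-Fos shRNA exceeded that with control shRNA by 0.84 ± 0.16 (limma adjusted p = 0.0275). The change was -0.69 with control shRNA and 0.15 with c-Fos shRNA, over 2 arrays a group. The call was lost in 7 of 8 fits that left out an array (adjusted p from 0.0649 to 0.112), and what underlies the difference was not tested.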

How the results depend on the processing

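No call turned direction under any alternative run. Of 104 calls of a member in a contrast, 92 held without further normalization, 95 with arrays shifted to one median, 104 with a pseudocount of 1 and of 64, 96 without a filter, 102 with a filter at the 50th percentile (the other 2 were not tested), 84 with the mean of probe sets, 95 in the fit of all probe sets and 104 with the replicate block. With the replicate block, the number of members called moved from 8 to 13 at 3 h of KCl with control shRNA, from 9 to 14 at 6 h with c-Fos shRNA, from 9 to 14 between arms at 1 h, from 11 to 19 between arms at 6 h, and from 1 to 3 for the interaction at 6 h. How far the block moved the counts of all genes is not given here, and it moved no other count of members by over 1.5 times. At 1 h of KCl with c-Fos shRNA the count went from 2 to 1 without further normalization, with arrays shifted to one median and with the mean of probe sets. Between arms at 6 h it was 7 with the mean of probe sets, which tested 41 members. The fit of all probe sets called 0 members by limma for the interaction at 6 h, where 3 had an unadjusted p under 0.05 in the fit of genes. Leaving out 1 array gave 7 to 12 members at 6 h of KCl with control shRNA, 1 to 2 at 1 h with c-Fos shRNA, 6 to 8 between arms at 0 h, 6 to 11 at 3 h, 7 to 10 at 6 h, and 0 to 1 for the interaction at 6 h. The cause of these moves was not tested beyond the smaller number of arrays. Signal near background limits the 13 members below the filter, and 2 arrays a group limit every interval.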
